A study of Canis lupus familiaris with 10 samples.

Results

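Transcript levels of 8 genes of the retinal ganglion cell axon were followed in the retinas of 5 dogs with glaucoma and of 5 healthy dogs. The genes were NEFL, NEFM, NEFH and INA, which encode neurofilament subunits, STMN2 and GAP43, which encode proteins of growing axons, UCHL1, which encodes a neuronal ubiquitin hydrolase, and THY1, which encodes a cell surface glycoprotein. They were taken as every probe set of the canine array annotated with exactly 1 of these symbols, which gave 14 of the 42924 probe sets on the array that are not controls, and no probe set shared by a member and another symbol was left aside. NEFL and INA had 1 probe set each and the other 6 genes had 2. Within these genes no probe set was picked by its values. Each group consisted of 5 retinas, 1 array per dog. The glaucoma dogs were clinical patients with primary glaucoma and closed angles, all under topical drugs that lower the intraocular pressure: a Shiba Inu aged 5 years, a Shiba Inu aged 14 years, a Basset Hound aged 5 years, a Basset Hound aged 7 years and a Dalmatian aged 9 years. The 5 healthy dogs were Beagles aged 4 years without eye disease or eye drugs. All glaucoma dogs were older than all healthy dogs and none shared their breed, so disease, treatment, breed and age cannot be told apart in these data. The ages are those of the sample labels, and the publication gives lower ages for the older Shiba Inu and the Dalmatian. Levels of single retinas are given below in this order of dogs, and those of the Beagles as healthy replicates 1 to 5.

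Retinal ganglion cells are the output neurons of the retina. Their long axons form the nerve fiber layer and the optic nerve, and they are the cells lost in glaucoma. The calibre of such axons depends on neurofilaments, intermediate filaments assembled from the light (NEFL), medium (NEFM) and heavy (NEFH) subunits together with alpha-internexin (INA). Stathmin 2 (STMN2) binds tubulin and regulates microtubules in axons, and GAP43 is a membrane-bound protein of growth cones. UCHL1 is among the most abundant proteins of neurons, and THY1 has long served as a surface marker of ganglion cells in rodents. None of the 8 is restricted to ganglion cells: neurofilaments are also made by horizontal cells, UCHL1 and STMN2 by other retinal neurons, and THY1 by T lymphocytes and fibroblasts.

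The values were RMA intensities, here taken as log2, so that a difference of -1 is a 2-fold lower level. The arrays were closely matched in brightness, with a median intensity of 78.0 to 80.7 in glaucoma and 77.1 to 80.6 in healthy retinas, and the number of probe sets above a log2 value of 7, the study's own limit for an expressed gene, was 15910 to 16315 per array. Within groups the arrays correlated at 0.849 to 0.967 in glaucoma and at 0.953 to 0.982 in healthy retinas. The lowest correlation was that between the 2 Shiba Inus, and the younger Shiba Inu stood apart on the second principal component (54.3, against -35.2 to -14.7 for the other glaucoma dogs). In this dog the photoreceptor marker list was at a median of -2.93 relative to the healthy mean and the pigment epithelium list at 3.0. One of the Beagles, healthy replicate 4, also had raised pigment epithelium markers (1.69, against -0.48 to -0.29 in the other Beagles).

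Every probe set of the neurofilament triplet (NEFL, NEFM and NEFH) and both UCHL1 probe sets were decreased in the glaucomatous retina, whereas neither THY1 probe set passed the test. The groups were compared with limma across all 18416 probe sets above the log2 level of 7 in at least 2 samples, and calls were made at an adjusted p under 0.05 (Benjamini-Hochberg). All 14 member probe sets passed that filter, although 2 of them, the dimmer ones of NEFM and NEFH, did so through the healthy retinas alone. Of the 14, 8 were called lower in glaucoma (57.1%), against 9.4% of all probe sets tested, and 7 were at least 2-fold lower, against 3.12%. None was called higher (0 by limma, also at an unadjusted p under 0.05), against 7.58% of all. In 9 of the 14 every glaucoma retina lay below every healthy retina, against 8.03% of all probe sets tested. The calls fell on 5 genes (NEFL, NEFM, NEFH, GAP43 and UCHL1). The 6 probe sets not called belonged to INA, STMN2, THY1 and the dimmer probe set of GAP43. Without the 2 dimmer probe sets of NEFM and NEFH, 6 of 12 were called lower (50%). Those 2 dimmer probe sets are also among the 7 at least 2-fold lower and among the 9 fully separated. The median difference of the 14 was -1.42, against -0.02 for all tested. In this whole-tissue RNA, fewer ganglion cells and less RNA per cell cannot be told apart.

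**Figure D1:**
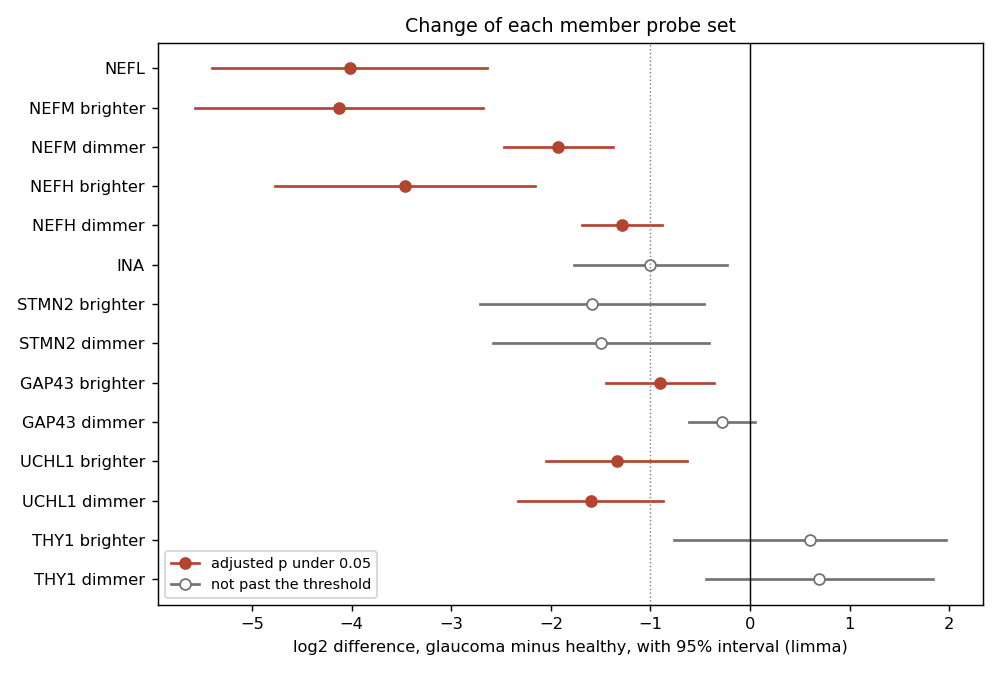
Change of each of the 14 member probe sets, as the log2 difference of glaucoma minus healthy with its 95% interval from limma (5 retinas per group); filled points are probe sets with an adjusted p under 0.05, and the dotted line marks a 2-fold decrease. NEFL, the brighter NEFM and the brighter NEFH lie farthest to the left at -4.02, -4.12 and -3.46, and both THY1 probe sets lie right of 0 with intervals that include it.

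The spread of the members was wide in disease. The median SD over glaucoma retinas was 1.05, against 0.31 over healthy retinas, while for all probe sets tested these medians were 0.28 and 0.19. The test assumes a common spread for both groups. The rank sum test of the study's methods uses ranks alone, which does not remove the effect of unequal spread. With it no probe set of the array passed after adjustment. It called 0 members and 0 probe sets in all, with 0.0536 as its smallest adjusted p, while 11 members and 4840 probe sets were at an unadjusted p under 0.05.

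NEFL and the brighter probe sets of NEFM and NEFH showed the largest changes of the members. NEFL was measured by the probe set Cfa.10952.1.A1_s_at, whose log2 levels were 8.05, 9.51, 10.66, 8.33 and 6.42 in the glaucoma retinas, against 12.99, 12.93, 12.62, 12.31 and 12.22 in the healthy retinas. The groups were separated by 1.56 log2 units, and the Basset Hound aged 5 years came closest to the healthy range. NEFL averaged 8.59 ± 1.60 in glaucoma and 12.61 ± 0.35 in healthy retinas (SD, n = 5 each), a difference of -4.02 (SE 0.63, 95% interval -5.40 to -2.64, adjusted p = 0.00169). This is a 16.2-fold lower level, and 6.16% of the healthy one. By size of decline the probe set ranked 7 of 18416, and 7 probe sets in all (0.038%) differed by -4 or more negative values.

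NEFM gave nearly the same pattern. Its brighter probe set, Cfa.10905.1.A1_at, had log2 levels of 8.51, 9.62, 10.84, 8.74 and 6.32 in the glaucoma retinas, against 13.34, 13.31, 12.93, 12.53 and 12.52 in the healthy retinas. The order of the glaucoma dogs was that seen for NEFL. The difference was -4.12 (SE 0.66, 95% interval -5.57 to -2.68, adjusted p = 0.00194), a 17.4-fold lower level, which ranked 5 of 18416. The dimmer probe set, CfaAffx.14238.1.S1_at, was at 5.77, 6.17, 5.84, 6.02 and 5.54 in glaucoma, against 8.39, 8.31, 7.83, 7.11 and 7.31 in healthy retinas. All 5 glaucoma values were below the level of 7, and the glaucoma SD was only 0.24. Here the difference was -1.92 (SE 0.25, adjusted p = 0.000553). Brightness depends on the probes, so the levels of the 2 probe sets are not comparable with each other.

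NEFH, the subunit with the longest side arm, was also decreased. Its brighter probe set, Cfa.1268.1.S1_at, had log2 levels of 7.61, 7.95, 9.45, 6.31 and 5.74 in the glaucoma retinas, against 11.49, 11.13, 11.02, 10.44 and 10.30 in the healthy retinas. Both the Basset Hound aged 7 years and the Dalmatian lay under the level of 7. The difference was -3.46 (SE 0.59, 95% interval -4.77 to -2.16, adjusted p = 0.00294), an 11-fold lower level ranking 16 of 18416. The dimmer probe set, CfaAffx.19019.1.S1_s_at, lay below 7 in all 5 glaucoma retinas (6.24, 6.87, 6.77, 6.49 and 6.62), against 8.38, 8.12, 7.76, 7.60 and 7.57 in healthy retinas. It differed by -1.28 (SE 0.18, adjusted p = 0.000941).

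The 5 calls on the neurofilament triplet, 2 of which are on the dimmer probe sets, held whichever of the 10 retinas was left out. Leaving out the younger Shiba Inu gave -3.89 for NEFL, -4.05 for the brighter NEFM and -3.51 for the brighter NEFH, and leaving out the Dalmatian gave -3.48, -3.50 and -3.05 for them. The medians of the photoreceptor and pigment epithelium lists, which lay far from the healthy mean in the younger Shiba Inu, were near it in the older Shiba Inu and in both Basset Hounds (photoreceptors -0.22 to -0.05, pigment epithelium -0.37 to 0.19). In these 3 dogs NEFL was at -3.11, -1.95 and -4.28 relative to the healthy mean. The 3 dogs were picked by the list medians, and the part of tissue composition in the NEFL decrease was not tested. Single genes of these lists differed from the medians: in the older Basset Hound the cone opsin OPN1SW was at a log2 level of 6.01, against a healthy mean of 10.58.

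**Figure D2:**
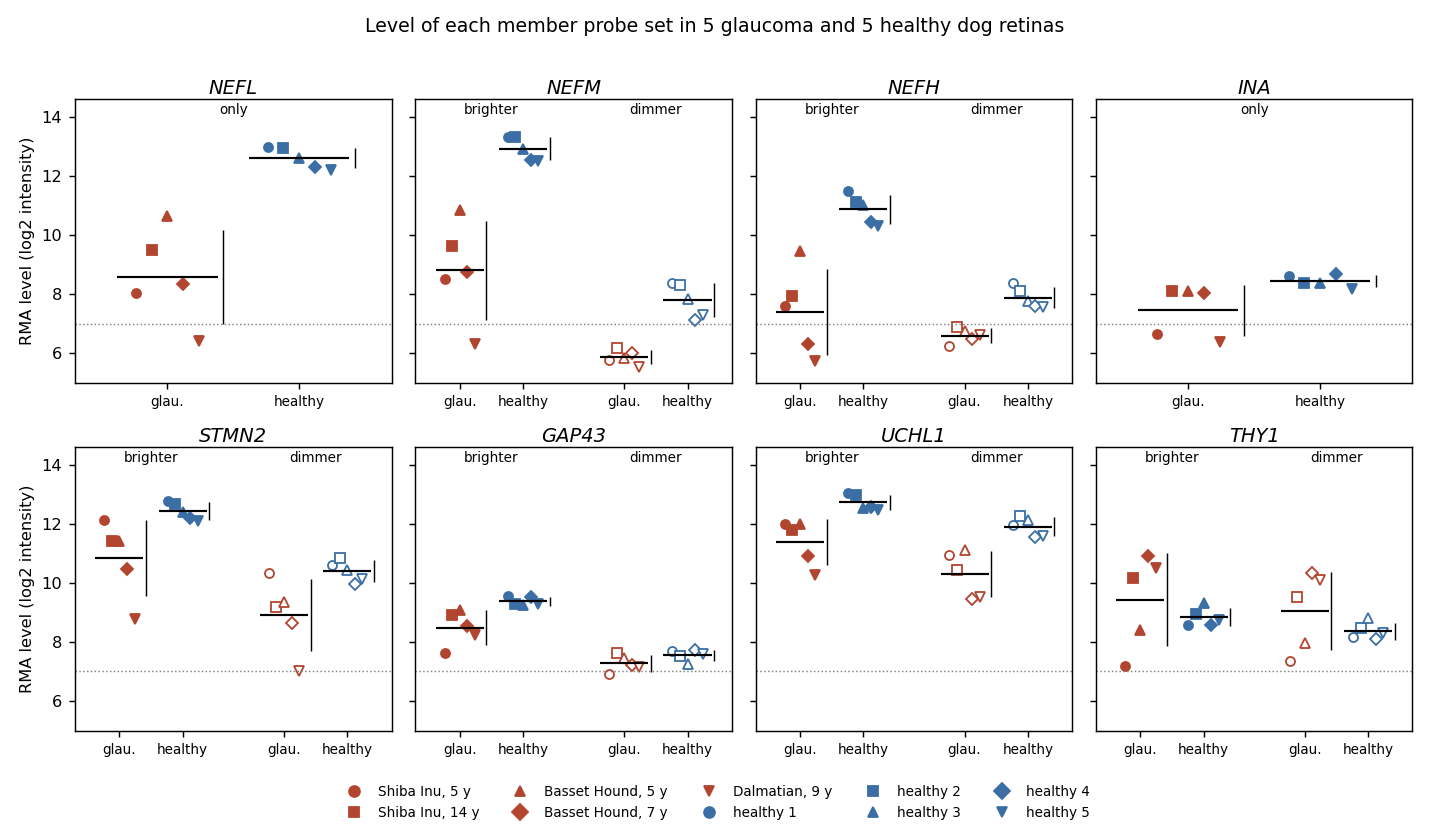
Log2 RMA level of every member probe set in each retina, with glaucoma left of healthy in each pair (a marker shape per dog, filled for the only or brighter probe set of a gene and open for the dimmer); horizontal lines are group means, vertical bars are 1 SD, and the dotted line is the level of 7. NEFL, NEFM and NEFH separate the groups completely, while the glaucoma points of THY1 lie on both sides of the healthy points.

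INA, the neurofilament subunit that predominates in developing neurons, changed far less. The log2 levels of CfaAffx.16225.1.S1_at were 6.64, 8.11, 8.10, 8.03 and 6.37 in the glaucoma retinas, against 8.62, 8.37, 8.38, 8.69 and 8.19 in the healthy retinas. The groups did not overlap, but 3 of the dogs lay just under the healthy range and the gap was 0.07. The younger Shiba Inu and the Dalmatian were farther away, at -1.81 and -2.09 relative to the healthy mean. The difference of -1.0 (SE 0.35, 95% interval -1.77 to -0.23) did not pass the threshold, with an adjusted p of 0.0732. It passed without the Shiba Inu aged 14 years (-1.17, adjusted p = 0.0481) and without the Basset Hound aged 5 years (-1.16, adjusted p = 0.0461).

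The growth-associated genes were split. For STMN2, the log2 levels of the brighter probe set Cfa.10270.1.S1_at were 12.13, 11.42, 11.42, 10.46 and 8.79 in the glaucoma retinas, against 12.77, 12.68, 12.41, 12.20 and 12.10 in the healthy retinas. The younger Shiba Inu lay within the healthy range, whereas the Dalmatian was at -3.64 relative to the healthy mean. The difference was -1.59 (SE 0.51, 95% interval -2.72 to -0.46) with an adjusted p of 0.0552, which missed the threshold. Its dimmer probe set, CfaAffx.13307.1.S1_s_at, had levels of 10.34, 9.19, 9.37, 8.64 and 7.01 in glaucoma, against 10.62, 10.86, 10.43, 9.98 and 10.13 in healthy retinas, and a difference of -1.49 (adjusted p = 0.0607). Without the younger Shiba Inu both probe sets passed, with differences of -1.91 (adjusted p = 0.018) and -1.85 (adjusted p = 0.0127). Without the Dalmatian the brighter one passed at a smaller difference, -1.08 (adjusted p = 0.0411).

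GAP43 was modestly decreased. The log2 levels of its brighter probe set, Cfa.9841.1.S1_at, were 7.61, 8.93, 9.10, 8.53 and 8.24 in the glaucoma retinas, against 9.57, 9.28, 9.25, 9.53 and 9.28 in the healthy retinas. The groups did not overlap, and the younger Shiba Inu, which had the highest STMN2 of the glaucoma dogs, had the lowest GAP43. The difference was -0.90 (SE 0.24, 95% interval -1.44 to -0.36, adjusted p = 0.0285), a 1.87-fold lower level. This call was lost without the Dalmatian (adjusted p = 0.0714) and without any of healthy replicates 1, 2, 4 and 5 (adjusted p = 0.0548 to 0.0652), each time at a difference of -0.93 to -0.84. The dimmer probe set, CfaAffx.16950.1.S1_s_at, had 6.90, 7.64, 7.45, 7.22 and 7.15 in glaucoma, against 7.68, 7.53, 7.25, 7.72 and 7.59 in healthy retinas. Here the groups overlapped and the difference of -0.28 was not called (95% interval -0.61 to 0.04, adjusted p = 0.215).

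UCHL1, which trims ubiquitin from small adducts, was decreased on both probe sets. The brighter, Cfa.4489.1.S1_at, had log2 levels of 11.99, 11.78, 11.99, 10.91 and 10.25 in the glaucoma retinas, against 13.04, 12.99, 12.53, 12.58 and 12.47 in the healthy retinas. The older Basset Hound and the Dalmatian were the lowest. The difference was -1.34 (SE 0.32, 95% interval -2.05 to -0.63, adjusted p = 0.0165), a 2.53-fold lower level. The other probe set, CfaAffx.24337.1.S1_s_at, had 10.96, 10.45, 11.10, 9.46 and 9.51 in glaucoma, against 11.98, 12.25, 12.14, 11.54 and 11.59 in healthy retinas, and differed by -1.60 (SE 0.33, adjusted p = 0.0078). The groups were fully separated on both probe sets. With age as a covariate the calls were lost (-1.20, adjusted p = 0.104, and -1.36, adjusted p = 0.0732), and since all Beagles had the same age, the slope for age rested on the glaucoma dogs alone.

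THY1 divided the glaucoma dogs. Its brighter probe set, CfaAffx.18667.1.S1_s_at, had log2 levels of 7.19, 10.16, 8.40, 10.91 and 10.52 in the glaucoma retinas, against 8.59, 8.93, 9.32, 8.59 and 8.73 in the healthy retinas. The older Shiba Inu, the older Basset Hound and the Dalmatian lay above every healthy retina, and the younger Shiba Inu and the younger Basset Hound lay below every one. The difference of 0.60 was within this spread (SE 0.62, 95% interval -0.76 to 1.97, adjusted p = 0.536). The other probe set, Cfa.21521.1.S1_a_at, had 7.36, 9.53, 7.98, 10.32 and 10.08 in glaucoma, against 8.16, 8.46, 8.80, 8.08 and 8.29 in healthy retinas. It placed the same dogs above and below, with a difference of 0.70 (adjusted p = 0.381). Single dogs moved the value widely: the difference of the brighter probe set was 1.16 without the younger Shiba Inu (adjusted p = 0.0831) and 0.23 without the older Basset Hound (adjusted p = 0.823). With array weights, which gave the younger Shiba Inu the smallest weight, the brighter probe set was not called (1.22, adjusted p = 0.0536). The dimmer one, Cfa.21521.1.S1_a_at, was called higher (1.19, adjusted p = 0.038). With age as a covariate the differences of the brighter and the dimmer probe set turned negative (-0.38 and -0.08).

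Cells other than ganglion cells that make THY1 were also followed by their markers. Median deviations of the lymphocyte list from the healthy mean were 0.26, 0.29, 0.18, 0.33 and 0.74 in the glaucoma dogs, over 4 measured genes of 16, and CD2 (0.74) and CD3E (0.42) were elevated (without the Dalmatian, 1 gene of the list was), while NKG7 was at 0.29 (adjusted p = 0.164). Lymphocyte medians were 0.29, 0.33 and 0.74 in the older Shiba Inu, the older Basset Hound and the Dalmatian, whose THY1 exceeded every healthy retina. They were 0.26 and 0.18 in the younger Shiba Inu and the younger Basset Hound, whose THY1 was below every healthy retina. The 2 Shiba Inus thus differed little in this median, and THY1 was highest in the older Basset Hound. The paper reports no CD3 or CD79 positive cells in the glaucomatous retinas it stained, apart from occasional CD3 positive cells around vessels. The fibroblast list stood at 0.79, 0.10, 0.49, 0.03 and 1.69, over 5 of 10, with PDGFRA elevated (1.08) and COL1A2 at 1.42 (adjusted p = 0.108). The part of these cells in the THY1 levels was not tested.

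Individual dogs carried the decrease to different degrees. Among the glaucoma retinas the Dalmatian was the lowest in 8 of the 14 probe sets, and in 4 of the 5 of the neurofilament triplet. The younger Basset Hound was the highest in 6 and the older Shiba Inu in 4. The mean deviation of the 5 triplet probe sets from the healthy mean was -3.18 in the younger Shiba Inu, -2.40 in the older Shiba Inu, -1.71 in the younger Basset Hound, -3.24 in the older Basset Hound and -4.29 in the Dalmatian. Thus dogs of the same breed differed from each other, and with 1 or 2 dogs per breed no difference between breeds was tested. The younger Shiba Inu, the lowest dog in 5 probe sets, was the highest of the 5 for both STMN2 probe sets.

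**Figure D3:**
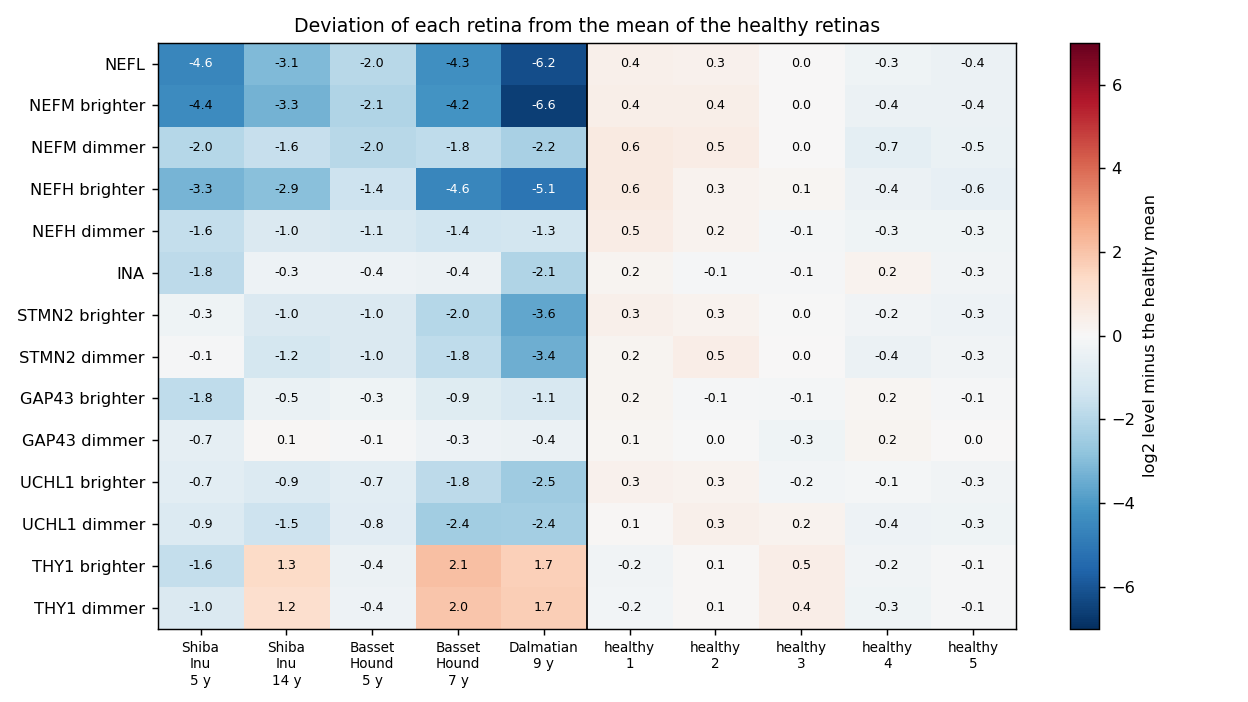
Deviation of each retina (columns, the 5 glaucoma dogs left of the 5 healthy dogs) from the mean of the healthy retinas for every member probe set (rows), in log2 units, blue for lower and red for higher. The neurofilament rows are blue in all 5 glaucoma dogs, deepest in the Dalmatian in 4 of the 5 triplet rows, and only the THY1 rows hold clear red, in the older Shiba Inu, the older Basset Hound and the Dalmatian.

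Whether the members changed by unequal amounts was tested within retinas, as the difference of the log2 levels of 2 genes in each dog, with an exact two-sided permutation test over the 10 dogs and 28 pairs of genes. Each gene was represented by its only or brighter probe set. Dimmer probe sets were not used for these pairs. On them NEFM changed by -1.92 and NEFH by -1.28, both with all glaucoma levels below 7, beside -1.60 for UCHL1 and -1.49 for STMN2. The order of the changes below is therefore that of the brighter probe sets. After Benjamini-Hochberg adjustment 15 pairs passed, and these were all 15 pairs of NEFL, NEFM or NEFH with INA, STMN2, GAP43, UCHL1 or THY1 (exact p = 0.00794, the smallest that 5 against 5 can give, adjusted p = 0.0148). NEFL decreased more than each of them: its change less that of INA was -3.02 (95% interval -4.12 to -1.92), less that of STMN2 -2.43 (-3.66 to -1.20), less that of GAP43 -3.12 (-4.46 to -1.78) and less that of UCHL1 -2.68 (-3.83 to -1.54). The intervals of gene pairs are t intervals from a pooled SD and assume the same spread in both groups. The spreads were unequal, such as an SD of 1.19 in glaucoma and 0.06 in healthy retinas for NEFL less STMN2.

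Within the triplet no pair passed (0 of 3 by the exact permutation test, also at an unadjusted p under 0.05). The change of NEFL less that of NEFM was 0.10 (95% interval -0.14 to 0.34), and NEFM against NEFH gave -0.66 (-1.42 to 0.10). Without the older Basset Hound, however, NEFH was the less decreased, and both NEFL against NEFH (-0.77, exact p = 0.0159, adjusted p = 0.0261) and NEFM against NEFH (-0.92, exact p = 0.00794, adjusted p = 0.0139) passed. No pair among INA, STMN2, GAP43, UCHL1 and THY1 passed either (0 of 10 by the same test, also unadjusted), but their intervals were wide, such as -2.19 to 0.81 for STMN2 against GAP43. The result for these 10 pairs depended on single dogs. Without the younger Shiba Inu 24 of the 28 pairs passed, among them STMN2 against GAP43 (-1.23, exact p = 0.00794, adjusted p = 0.0117). Without the younger Basset Hound INA against THY1 (-2.025) and GAP43 against THY1 (-1.918) passed (exact p = 0.0238, adjusted p = 0.0392 for each). Over all retinas left out in turn 14 to 24 pairs passed.

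Probe sets of the same gene were compared in the same way, as 6 pairs. For NEFM, NEFH and GAP43 the change of the brighter less that of the dimmer was -2.20, -2.18 and -0.62. The dimmer probe sets of NEFM and NEFH lay under the level of 7 in all glaucoma retinas and no higher than 8.39 in healthy retinas, and that of GAP43 lay near 7 in both groups, so no test is given for these 3. For STMN2, UCHL1 and THY1 the 2 probe sets differed by -0.10, 0.26 and -0.09 in their change (exact permutation test, adjusted p = 0.321 to 0.825).

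The members were also compared in how they varied from dog to dog. After subtraction of each group's mean, NEFL and NEFM correlated at r = 0.99 over the 10 retinas (rho 0.96, and r = 0.97 without the 2 retinas farthest from the median of NEFL). NEFL and NEFH correlated at r = 0.91 (rho 0.83, and r = 0.66 without the 2 farthest), and STMN2 and UCHL1 at r = 0.96 (rho 0.95, and r = 0.96 without them). INA and GAP43 stood at r = 0.83 (rho 0.89, and r = 0.83 without the 2 farthest). High values were also found across these genes, such as NEFH with UCHL1 at r = 0.88 (rho 0.90, and r = 0.84 without the 2 farthest) and NEFL with INA at r = 0.80 (rho 0.79, and r = 0.59 without them), and no grouping was tested. STMN2 and GAP43 stood at r = 0.01 (rho 0.28, and r = 0.70 without the 2 farthest), a value that rested on the younger Shiba Inu and the Dalmatian. THY1 and UCHL1 correlated negatively, at r = -0.70 (rho -0.73, and r = -0.65 without the 2 farthest). These are descriptions of 10 arrays, on which both genes of a pair share the same RNA, and most of the variation came from the 5 glaucoma retinas.

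**Figure D4:**
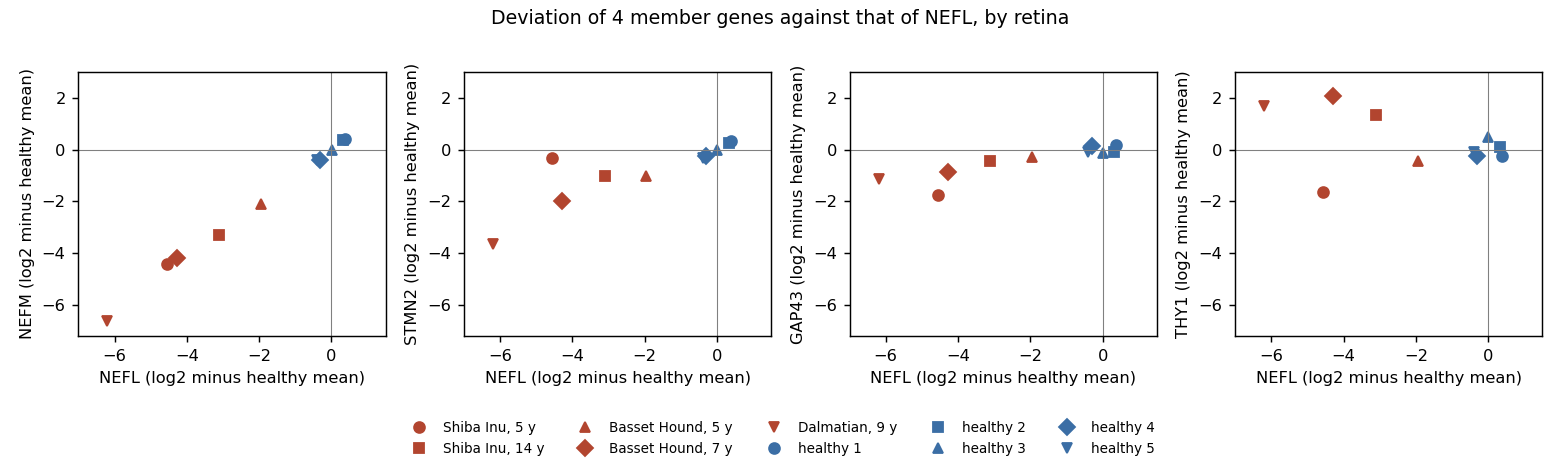
Deviation from the healthy mean (log2 units) of NEFM, STMN2, GAP43 and THY1 on the vertical axes against that of NEFL on the horizontal axes, 1 point per retina (glaucoma dogs in red, healthy dogs in blue). NEFM follows NEFL closely in all glaucoma dogs, whereas the younger Shiba Inu (red circle) has a low NEFL, a STMN2 near the healthy mean and a THY1 below it.

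Other genes were ranked by how closely they varied with the members across the dogs. The 7900 genes with a symbol of their own and a tested probe set were ranked by their correlation with each member. The correlations were taken over the 10 retinas after subtraction of the group means. Only the genes with the highest values are named for each member. The highest of 7900 correlations over 10 retinas are raised by selection alone, so no shared regulation or cell type is concluded from them. Whether they exceed those of unrelated genes was not tested. The nearest to NEFL were GSG1 (r = 0.97), VSNL1 (r = 0.97), which encodes the neuronal calcium sensor visinin-like protein 1, and SULT4A1 (r = 0.95), a sulfotransferase of neurons. GSG1 was also the nearest to NEFM (r = 0.98), followed by CACNA2D3 (r = 0.96), a calcium channel subunit, and BMERB1 (r = 0.94). All 5 were decreased in glaucoma, with log2 differences of -4.03 to -2.36. NEFH varied most like CHGB (r = 0.93), which encodes chromogranin B of secretory granules and was decreased (-4.69, adjusted p = 0.0002), like MAP6 (r = 0.93), which stabilises microtubules, and like ZNF408 (r = 0.92), whose level did not change detectably (0.02, adjusted p = 0.961).

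GAP43 varied most like RAB3A (r = 0.98), a small GTPase of synaptic vesicles, KIF5A (r = 0.95) and TUT1 (r = 0.95). For STMN2 the nearest were CA10 (r = 0.96), ADCY8 (r = 0.95) and ADGRB3 (r = 0.93), and ADCY8, a calmodulin-stimulated adenylyl cyclase, was also near UCHL1 (r = 0.96), between PITHD1 (r = 0.97) and RFC4 (r = 0.94). The nearest to INA were BOD1, ABHD14A and SNRPB (each r = 0.97), and the nearest to THY1 were ROMO1 (r = 0.97), DBNDD2 (r = 0.96) and MYOM1 (r = 0.96). None of these last 6 genes passed the test between the groups (adjusted p = 0.0536 to 0.733).

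Genes of axonal microtubules and of transport were lower or not called on their brightest probe sets. In the lists that follow, a gene is represented by its brightest tested probe set, and the median difference over all 7900 genes was -0.01. Of the 180 measured list genes that are not members, 79 had a further tested probe set, and for 2 of them, SNCG and the kinesin light chain KLC1, probe sets were called in opposite directions. Of 22 stathmins and axonal microtubule proteins 16 were measured, of which 10 were lower, 0 higher and 6 not called, with a median of -0.60. Among them were MAP6 (-1.92, adjusted p = 0.0001), the tubulin TUBB2A (-1.76, adjusted p = 0.0003) and the stathmin STMN3 (-0.86, adjusted p = 0.0006). CRMP1, also among the 10 lower genes, was above the level of 7 in healthy retinas only. MAP1A, a microtubule-associated protein, was at -0.57 and did not pass (adjusted p = 0.0646).

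Of 13 axonal transport motors 10 were measured, with 5 lower, 0 higher and 5 not called (median -0.43). DYNC1I1, a dynein intermediate chain, was decreased the most of those called (-2.34, adjusted p = 0.0023). The kinesin KIF5A, a carrier of neurofilaments, differed by -1.67 (adjusted p = 0.005) and KIF1A, a carrier of synaptic vesicle precursors, by -0.62 (adjusted p = 0.0101), whereas KIF1B was at 0.27 (adjusted p = 0.785). KLC1 was lower on its brightest probe set (-0.92) and higher on another (0.94, adjusted p = 0.029), so its direction is not settled. Of 12 genes for spectrins, ankyrins and linkers 10 were measured and only 2 were lower, SPTBN4 (-0.67, adjusted p = 0.0025) and EPB41L3 (-0.92, adjusted p = 0.0197), with a median of -0.14. Further EPB41L3 probe sets differed by -1.21 to -0.50, and those at -0.68 and -0.50 did not pass (adjusted p = 0.0913 and 0.104). ANK3, the ankyrin of the axon initial segment, was at -1.01 and did not pass (adjusted p = 0.0693).

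Membrane proteins and other intermediate filaments moved differently. Of 18 further growth cone and axon membrane genes 12 were measured, with a median of 0.13. NRN1, which promotes neurite outgrowth, was the only one decreased (-2.54, adjusted p = 0.0016), while the adhesion molecules NRCAM (0.86, adjusted p = 0.0053) and CHL1 (0.75, adjusted p = 0.0119) were elevated and NCAM1 was at 0.34 (adjusted p = 0.268), with a dimmer probe set called higher (0.48, adjusted p = 0.0199). Of 12 other intermediate filament and lamin genes 8 were measured, with 0 lower, 2 higher and 6 not called (median 0.38). GFAP, the filament of glia, was at 8.16 ± 1.01 in glaucoma and 5.70 ± 0.22 in healthy retinas (SD, n = 5 each), higher by 2.46 log2 units (adjusted p = 0.0023), and DES was higher by 0.74 (adjusted p = 0.0491), though not on its dimmer probe set (1.08, adjusted p = 0.0798). GFAP lay below the level of 7 in every healthy retina, so it passed the filter through the glaucoma retinas alone. KRT18, a keratin also on the pigment epithelium list, was at 1.88 and did not pass (adjusted p = 0.204). Without the Dalmatian, 1 gene of this list was called higher in place of 2.

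**Figure D5:**
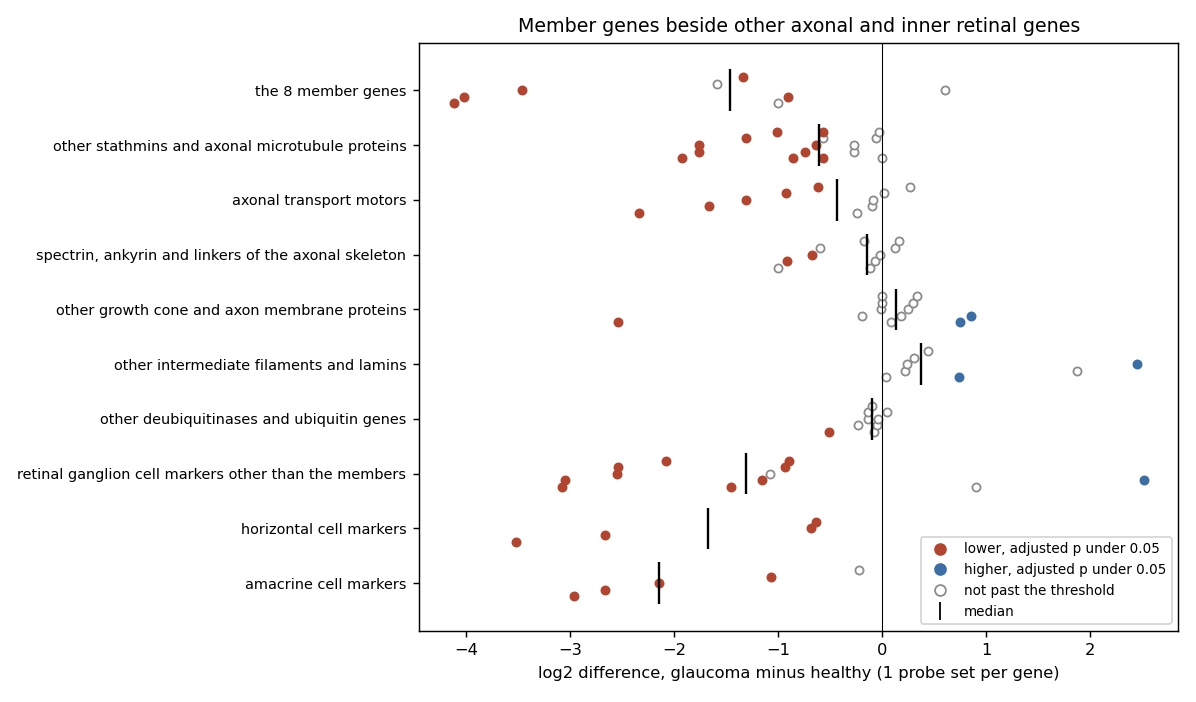
Log2 difference, glaucoma minus healthy, of each measured gene (points, 1 probe set per gene) in the 8 member genes and in lists of other axonal and inner retinal genes (rows), red when lower and blue when higher at an adjusted p under 0.05, with open points not past the threshold and black bars at list medians. The neurofilament triplet lies at the far left of the member row, the growth cone and intermediate filament rows have medians right of 0, and the blue point at 2.52 in the ganglion cell row is the brighter of the 2 SNCG probe sets, which were called in opposite directions.

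Markers of ganglion cells other than the members were mostly lower too. Of 25 listed 12 were measured, with 9 lower, 1 higher and 2 not called (median -1.31). Among the lower genes, EBF1, ISL1, NRG1 and CHRNA6 were above 7 in healthy retinas only. The RNA-binding protein ELAVL4 (-3.05, adjusted p = 0.0008), the calcium buffer PVALB (-3.08, adjusted p = 0.0002) and the transcription factor EBF1 (-2.08, adjusted p = 0.0002) were decreased, and NSG1 was at -1.08 (adjusted p = 0.0684), with a dimmer probe set called lower (-1.23, adjusted p = 0.044). The 1 higher call was on SNCG, gamma-synuclein, itself a ganglion cell marker in rodents, and its 2 probe sets disagreed. The log2 levels of the brighter were 12.15, 11.35, 11.92, 11.38 and 12.79 in the glaucoma retinas, against 9.93, 9.23, 9.53, 9.24 and 9.09 in the healthy retinas. Every glaucoma retina lay above every healthy one, and the difference was 2.52 (SE 0.27, adjusted p = 0.0002). The dimmer had 5.15, 6.47, 6.62, 5.76 and 5.48 in glaucoma, against 8.81, 8.88, 8.20, 8.29 and 8.14 in healthy retinas. Here every glaucoma retina lay below 7 and below every healthy one, and the difference was -2.57 (SE 0.29, adjusted p = 0.0002). The direction of SNCG is therefore not settled by these arrays.

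Markers of other inner retinal neurons were mostly lower too, among them those of the horizontal cells, which also make neurofilaments. All 4 measured horizontal cell markers of 8 were lower (median -1.67), led by CALB1 (-3.52, adjusted p = 0.0094), a calcium buffer, and TFAP2B (-2.67, adjusted p = 0.0049), a transcription factor shared with amacrine cells, with ONECUT2 at -0.68 (adjusted p = 0.0099). ONECUT2 and PROX1 were above the level of 7 in healthy retinas only, so they were measured through that group alone. The summed intensity of the list was 239.6 to 1444 in glaucoma and 2837 to 3787 in healthy retinas. Its median deviation in the glaucoma dogs was -1.87, -0.81, -1.10, -2.24 and -2.50, beside the triplet means of -3.18, -2.40, -1.71, -3.24 and -4.29. The Dalmatian was thus the lowest and the younger Basset Hound and the older Shiba Inu were the highest on both. This was not particular to horizontal cells, since the amacrine list gave -2.49, -1.04, -1.29, -2.66 and -3.10 in the same dogs. The bipolar list gave -1.76, -1.81, -1.17, -1.80 and -2.65. The list of other ganglion cell markers did not share that order, at -1.38, -1.62, -1.29, -1.61 and -1.41. Of 5 measured amacrine markers of 14, 4 were lower (median -2.14, summed intensity 1114 to 2816 in glaucoma and 4070 to 5653 in healthy retinas). They included TFAP2A (-1.06, adjusted p = 0.0022), also above 7 in healthy retinas only, and the calcium buffer CALB2 (-2.14, adjusted p = 0.0062). The transcription factor PAX6 was at -0.23 (adjusted p = 0.581). Of 6 bipolar markers of 13, 4 were lower (median -2.02), among them PCP2 (-2.73, adjusted p = 0.001), CABP5 (-2.58, adjusted p = 0.0053) and ISL1 (-1.46, adjusted p = 0.003), while OTX2 (-0.22, adjusted p = 0.325) and NYX (0.14, adjusted p = 0.375) did not pass. ISL1 was above 7 in healthy retinas only. The share of the member changes that came from cells other than ganglion cells was not tested.

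Of 20 measured photoreceptor markers 3 were lower and 0 higher (median -0.88), and without the Dalmatian 0 were lower. The 3 were genes of cones, OPN1SW (-3.0, adjusted p = 0.0223), GNGT2 (-1.95, adjusted p = 0.0309) and PDE6C (-1.49, adjusted p = 0.0381), and cone arrestin, ARR3, was at -2.51 and did not pass (adjusted p = 0.0711). Glial lists moved the other way. Of the measured genes 4 of 10 Müller cell markers, 6 of 7 markers of astrocytes and reactive glia (median 1.88) and 11 of 12 markers of microglia and macrophages (median 2.06) were elevated, and 0 in these lists were lower. The smallest adjusted p values belonged to C1QC (3.44), LAPTM5 (2.08) and CSF1R (3.26) of microglia, to APOE (2.28), AQP4 (1.81) and CLU (0.42) of Müller cells, and to CHI3L1 (3.70), SERPINA3 (2.14) and GFAP of reactive glia. Genes of these lists with every healthy level below 7, such as AQP4 and GFAP, passed the filter through the glaucoma retinas alone. For APOE a dimmer probe set did not pass (0.07, adjusted p = 0.733), nor did 1 for LAPTM5 (0.37, adjusted p = 0.103), and P2RY12 (-0.37, adjusted p = 0.516), SOX9 (0.46, adjusted p = 0.344) and S100B (0.62, adjusted p = 0.0833) were not called. The pigment epithelium list had 0 of 15 called in either direction by limma, with RPE65 at 2.87 (adjusted p = 0.139). The signal at the 3' end over that at the 5' end of the actin and GAPDH controls, a sign of RNA quality, was on the log2 scale 1.45 ± 0.07 in glaucoma and 1.52 ± 0.24 in healthy retinas (SD, n = 5 each, exact two-sided permutation test p = 0.611). For the 2 of the 4 control pairs whose names start with Cf_ rather than Cfa it was 0.94 ± 0.14 in glaucoma and 1.19 ± 0.22 in healthy retinas (exact p = 0.0556). With the ratio of those 2 pairs as a covariate the triplet stayed called on all 5 probe sets, while the GAP43 call and both UCHL1 calls were lost (adjusted p = 0.101 to 0.276).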

How the data were processed

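Biotin-labelled RNA of neural retina was measured on Affymetrix Canine genome 2.0 arrays, 1 per dog. The intensity values deposited by the authors had been normalized with RMA and are linear, and log2 was taken here. Probe sets were named by the platform annotation: 29254 have 1 symbol, 439 several and 13231 none. The suffix _s_at marks probes that can match more than 1 transcript. Left out were 111 array controls. Probe sets that exceeded a log2 of 7 on 2 or more arrays, as in the methods, were tested with limma 3.58.1 (R 4.3.3), adjusted by Benjamini-Hochberg over all 18416. Exact permutation tests enumerated every arrangement in Python 3.11.15 with numpy 2.4.6. The t quantiles of the gene pair intervals and rho came from scipy 1.17.1. Scripts were tested on simulated data. Every member is named, and of each list up to 3 genes with the smallest adjusted p in each direction and the largest difference that did not pass. NYX, KLC1, PROX1, NRG1 and CHRNA6 were added after their values were seen. Members and lists were chosen with earlier results of these data known. Arrays have no read depth, so their number limits the precision. Replicates were separate dogs. Alternatives covered the filter, normalization, variance model, test, covariates and samples left out. The SAM test of the methods was not run.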

Additional observations from a re-analysis of the deposited data

How the results depend on the processing

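The results were recomputed under 23 alternatives to the fit, 10 of which left out 1 retina. The 5 probe sets of NEFL, NEFM and NEFH kept their direction in all 23 and their call in 22, with differences of -4.62 to -3.04 for NEFL, -4.78 to -3.11 for the brighter NEFM and -3.97 to -2.56 for the brighter NEFH. The exception was the exact Wilcoxon rank sum test, which called 0 members lower, against 8 by limma, and 0 probe sets lower and 0 higher in all, against 1732 and 1396. Its smallest possible p, 0.00794, was adjusted to 0.0536, so no probe set could pass it. Array weights called 1 member higher, a THY1 probe set, and 2811 probe sets lower and 2095 higher in all. Age as a covariate gave 886 probe sets lower in all and turned both THY1 differences to -0.38 and -0.0843. The ratio of 3' to 5' signal of 2 control pairs as a covariate, chosen after seeing the data, gave 5 members lower, with 522 probe sets lower and 408 higher in all. Leaving out a retina gave 7 to 10 members lower, 0 to 0 higher, 1111 to 2127 probe sets lower and 866 to 1606 higher in all (the fewest without healthy replicate 2, and 919 higher without the Dalmatian), and 14 to 24 of the 28 gene pairs. The cause of these shifts was not tested. The replicate number as a block gave 9 members lower and 1114 probe sets lower in all, with STMN2 called on both probe sets (adjusted p = 0.034 and 0.0413) and GAP43 not (adjusted p = 0.0662). The numbers name different dogs and did not pair the samples, since deviations of same-numbered retinas correlated at -0.24 to 0.07 and 0 of 5 matched their own number best. Leaving out both Shiba Inus called STMN2 (adjusted p = 0.0124 and 0.0129), and leaving out both Basset Hounds called INA (adjusted p = 0.0238). With 5 arrays per group and a median glaucoma SD of 1.05 among the members, a member that missed the threshold is not shown to be unchanged, and the dimmer NEFM and NEFH probe sets gave no glaucoma level above 7.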

Other observations

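Enzymes around UCHL1 and kinases that phosphorylate neurofilament tails held few calls. Of 12 other deubiquitinase and ubiquitin genes 9 were measured, and UCHL5, a deubiquitinase of the proteasome, was the 1 called lower (-0.51, adjusted p = 0.0145), with 0 higher and a list median of -0.09. USP14, another proteasomal deubiquitinase, was at -0.23 (adjusted p = 0.176). Of 10 kinase genes and regulators of neurofilament tails 4 were measured. CDK5 was lower (-0.41, adjusted p = 0.0348), a call that was lost without the younger Shiba Inu and without the Dalmatian, and CSNK1D was at 0.27 (adjusted p = 0.134). Among 5 measured markers of oligodendrocytes and optic nerve myelin, the cells that wrap axons of the optic nerve, MAL was the 1 called higher (3.30, adjusted p = 0.0002), and ERMN was at 0.84 (adjusted p = 0.424). Endothelial and pericyte markers held 1 lower gene, ANGPT2 (-1.08, adjusted p = 0.0056), and 2 higher, FLT1 (0.66, adjusted p = 0.0146) and PDGFRB (0.59, adjusted p = 0.0385), of 7 measured, and 1 was higher without either the younger Shiba Inu or the Dalmatian, with 2 lower without the Dalmatian. ACTA2 of that list was at -1.04 (adjusted p = 0.12). Of 7 measured lens and cornea markers of 11, 0 were lower and CRYAB was higher (0.76, adjusted p = 0.0205), with 0 higher without the Dalmatian, and CRYGS was at 1.26 (adjusted p = 0.325). Among 28 groups of 5 retinas, 2 for each member probe set, 0 held a retina apart from the others by Dixon's criterion, which flags about 1 in 20 by chance.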
